A study of Mus musculus with 6 samples.

Results

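Photoreceptors are the light-sensing cells of the retina, and the first steps of their development are set by a small group of transcription factors. Otx2, a homeobox factor, acts in cells that leave the cell cycle and turns on Crx, a related homeobox factor that drives most photoreceptor genes, while the zinc finger factor Prdm1 keeps such precursors from turning into bipolar cells. The nuclear receptor genes Rxrg and Thrb are early markers of cones, and Nrl and Nr2e3 direct rod development. Rcvrn (recoverin, a calcium sensor) and Gngt2 (a subunit of the cone G protein transducin) belong to the later phototransduction machinery. Otx1, the sister gene of Otx2, is known from the rim of the optic cup and the pigment epithelium, where Otx2 is active as well.

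These 10 genes were followed in retinal progenitor cells (RPCs) with and without Pax6. They were taken by symbol from the probe annotation of the array, which placed 10 probe sets (groups of short probes for 1 transcript) on 9 of them, out of 45037 probe sets for 18193 named genes. Crx had 2 probe sets, 8 of the other genes had 1 each, and Nr2e3 was not analysed here. RNA came from GFP-positive cells sorted from the eyes of ICR mouse embryos at E12 and pooled to the same number of cells per array. The control cells were alpha-Cre (Pax6+/+;α-Cre in the methods) and the mutant cells Pax6 flox alpha-Cre (Pax6 loxP/loxP;α-Cre), so that both groups carried the transgene. The transgene joins a Pax6 promoter and the peripheral retina enhancer of that gene to Cre and GFP, so that the sort was aimed at distal RPCs. The transgene is known to stay inactive in some cells. The purity of the pools was not measured here, and genes of pigment epithelium, lens, endothelium and blood also had signal on the arrays. Control and mutant RPCs below mean these sorted pools. The floxed allele has loxP sites around the start codon and the exons of the paired domain. Each group had 3 pools on 1 array each, described as biological repeats, and the sources used here do not give the number of embryos in a pool.

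Values are log2 of the deposited RMA intensities, a brightness and not a number of molecules, so that levels of different genes are not compared. Calls came from limma's moderated test and needed a 1.5-fold difference, an unadjusted p under 0.05 and, after Benjamini-Hochberg adjustment over all probe sets, a p under 0.10. The array medians lay between 3.68 and 3.71 on the log2 scale and serve here as a guide to low signal. The array pairs had Pearson r from 0.995 to 0.997 within groups and from 0.991 to 0.993 between groups, across probe sets. Pax6 itself was lower by 1 of its 5 probe sets, with a log2 fold change of -1.60 (limma adjusted p = 0.00329), while its brightest had one of -0.11 (limma adjusted p = 0.306) and the other 3 were not called. Which of them lie in the deleted exons was not analysed here. Of 12 measured progenitor genes, 12 lay above the array median on all 6 arrays, as did 10860 of all 18193 genes. In lists of other cells used below, so did 12 of 12 endothelium, 14 of 17 lens and 8 of 10 blood genes. This count therefore does not set progenitors apart.

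In mutant RPCs, 2 of the 9 measured genes were higher, Crx and Rxrg, and none was lower. By gene, 2.28% of all genes were called higher, 0.918% lower and 3.20% in either direction. By probe set, 3 of 10 were called higher, where 1.67% of all probe sets were called higher and 0.984% lower. No member was called lower by limma or without the moderation of the variance, and at an unadjusted p under 0.05 there were 5 probe sets with higher and 0 with lower values. On 5 of the 10 probe sets each mutant array lay above each control array, as on 13.2% of all probe sets, and on none below, as on 15.1% (28.2% in either direction). By gene, the groups were apart for 4 of the 9 with the mutant arrays higher, as for 17.0% of all genes (33.4% in either direction). The median log2 fold change over the 9 genes, each taken by its brightest probe set, was 0.10, against -0.01 over all 18193 genes. Otx1 and Otx2 kept high and near equal values in both groups, whereas Thrb, Nrl and Rcvrn lay below the array median on every array. In a sorted pool, a change in the share of cells that express a gene and a change in RNA per cell cannot be told apart.

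**Figure D1:**
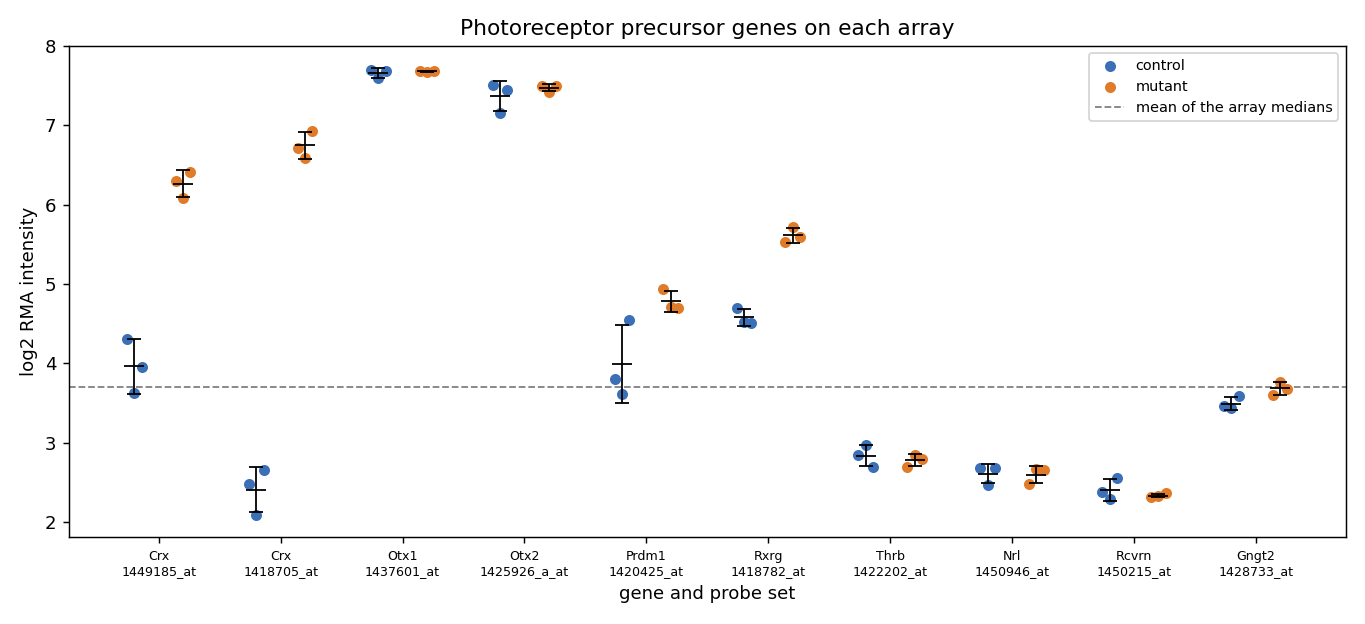
Log2 RMA intensity of each of the 10 probe sets on each array, with control arrays in blue, mutant arrays in orange, black bars for the mean and SD of 3 arrays and a dashed line at the mean of the array medians. For Crx and Rxrg all orange points lie above all blue points, Otx1 and Otx2 overlap between the groups, and Thrb, Nrl and Rcvrn lie below the line throughout.

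Among these genes Crx showed the largest rise. Its brighter probe set was at 4.31, 3.62 and 3.95 on the control arrays and at 6.30, 6.08 and 6.42 on the mutant arrays. The other was at 2.48, 2.09 and 2.65 on the control arrays and at 6.72, 6.59 and 6.94 on the mutant arrays. By both probe sets the mutant arrays stood well apart from the control arrays, control replicate 2 was the lowest array and mutant replicate 3 the highest. The brighter probe set was 4.94-fold higher in mutant RPCs (95% confidence interval 3.72 to 6.57), a log2 fold change of 2.31 (SE 0.17, limma adjusted p = 0.00278). The other was higher too, with a fitted log2 fold change of 4.34 (limma adjusted p = 0.00039). Its control values lay below the array median on all 3 arrays, so that the size of this change is not well determined and no fold is given. The rise of the brighter probe set ranked 5 among all 45037 probe sets.

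In control RPCs the brighter Crx probe set lay 0.26 above the array median on the log2 scale and the other 1.30 below it (-1.30), whereas in mutant RPCs they lay 2.57 and 3.06 above it. With an offset of 16 added to the intensities, which damps low values, the log2 fold changes were 1.55 and 2.53 and both stayed called. By the median of both probe sets on each array, the log2 fold change of Crx was 3.32.

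The promoter windows of Crx and Rxrg are shown because these were the genes called. They are RefSeq windows from 250 bases before to 50 after the transcript start (GRCm38.p6), written 5′ to 3′ in the direction of the gene. Capitals mark TAATCC on either strand (GGATTA on the strand shown), the core sequence that Otx and Crx homeodomains bind. The windows lie at chr7:15879906-15880205 (minus strand) for Crx and at chr1:167598112-167598411 and chr1:167618015-167618314 (plus strand) for the start sites of Rxrg.
Crx: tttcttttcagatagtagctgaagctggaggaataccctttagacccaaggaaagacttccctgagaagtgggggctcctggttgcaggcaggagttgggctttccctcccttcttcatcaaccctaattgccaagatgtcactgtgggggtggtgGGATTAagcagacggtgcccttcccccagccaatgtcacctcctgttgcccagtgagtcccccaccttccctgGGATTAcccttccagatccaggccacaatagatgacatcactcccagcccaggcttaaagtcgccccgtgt
Rxrg, window 1: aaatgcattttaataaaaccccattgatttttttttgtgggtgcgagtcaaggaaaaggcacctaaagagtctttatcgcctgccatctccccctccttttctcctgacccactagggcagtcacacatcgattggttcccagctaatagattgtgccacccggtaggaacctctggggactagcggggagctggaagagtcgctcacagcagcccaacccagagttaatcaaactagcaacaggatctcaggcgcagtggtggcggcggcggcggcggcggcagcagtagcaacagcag
Rxrg, window 2: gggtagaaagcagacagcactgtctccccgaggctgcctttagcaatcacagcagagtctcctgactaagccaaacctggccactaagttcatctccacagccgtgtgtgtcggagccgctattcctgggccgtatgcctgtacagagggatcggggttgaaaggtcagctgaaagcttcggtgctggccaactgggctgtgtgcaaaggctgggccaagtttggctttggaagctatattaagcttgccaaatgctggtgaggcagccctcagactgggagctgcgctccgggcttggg
The Crx window held 2 matches, which began 94 and 21 bases before the start. Of 32851 such windows of all genes, 7.06% held at least 1 match and 0.359% held 2 or more. Neither Rxrg window held one. In all, 3 of the 7 member genes with a window had a match, Crx, Otx2 (1 of its 4 windows) and Thrb (1 of its 2 windows), against 8.14% of all genes. A gene with several windows has more places for a match. By window, 3 of 12 member windows held one, against 7.06% of all windows. The 7 genes include Nr2e3, which had no values here, and Otx1, Rcvrn and Gngt2 had no window. No enrichment was tested. AGGTCA on either strand, the core sequence that many nuclear receptors bind, was in 1 Rxrg window, 88 bases before the start, in 1 Thrb window and in 16.3% of all windows. TAATCC and AGGTCA matches did not overlap in these windows. A match is a run of letters, and binding was not measured.

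Otx2 and Otx1, the homeobox genes related to Crx, were not called. Otx2, the activator of Crx in photoreceptor precursors, was at 7.52, 7.16 and 7.45 on the control arrays and at 7.50, 7.43 and 7.50 on the mutant arrays. The groups overlapped, and only control replicate 2 stood lower. The log2 fold change of Otx2 was 0.10 (SE 0.10, limma adjusted p = 0.613), and the 95% interval of the fold ran from 0.912 to 1.26. Otx1 was at 7.71, 7.59 and 7.69 on the control arrays and at 7.69, 7.68 and 7.69 on the mutant arrays. The mutant arrays lay inside the range of the controls, with a log2 fold change of 0.02 (SE 0.06, limma adjusted p = 0.858) and a fold between 0.923 and 1.12. Both intervals leave out the fold change of 1.5 in either direction. Within each array, brighter Crx minus Otx2 ran from -3.54 to -3.21 in the control and from -1.35 to -1.08 in the mutant arrays, so that their log2 fold changes differed by 2.20 (two-sided exact permutation p = 0.1, the smallest that 3 against 3 arrays allow, adjusted p = 0.1 over 4 comparisons of this kind, 1 of which, between the Crx probe sets, is not given).

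**Figure D2:**
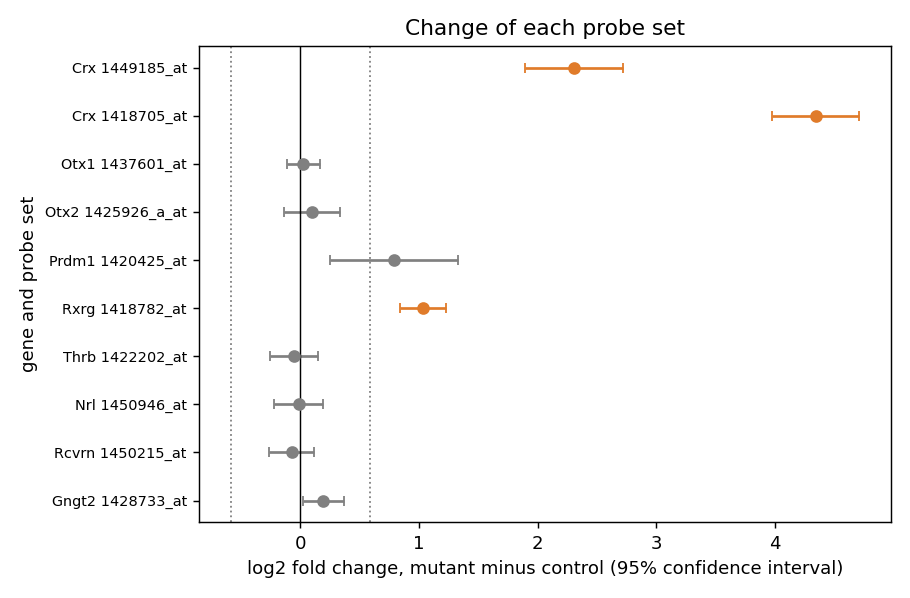
Log2 fold change, mutant minus control, of each probe set with its 95% confidence interval from limma, in orange where called and in grey where not, with dotted lines at a fold change of 1.5 in each direction. Both Crx probe sets (2.31 and 4.34) and Rxrg (1.03) lie beyond the line, the interval of Prdm1 crosses it, and those of Otx1 and Otx2 lie inside.

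Rxrg, the retinoid X receptor of early cones, was higher in mutant RPCs. It was at 4.70, 4.52 and 4.51 on the control arrays and at 5.53, 5.71 and 5.59 on the mutant arrays. The groups were apart, the arrays within each lay close together, and all 6 values were above the array median. The change was 2.05-fold (95% confidence interval 1.79 to 2.34), a log2 fold change of 1.03 (SE 0.08, limma adjusted p = 0.00315), which ranked 66 among 18193 genes by the rise of the brightest probe set, as against rank 2 for Crx. Within each array, brighter Crx minus Rxrg ran from -0.90 to -0.39 in the control and from 0.37 to 0.83 in the mutant arrays. Their log2 fold changes differed by 1.27 (two-sided exact permutation p = 0.1, the smallest possible, adjusted p = 0.1). Rxrg minus Otx2 was above all control arrays on each mutant array too, by 0.93 on average (two-sided exact permutation p = 0.1, adjusted p = 0.1).

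Thrb, the thyroid hormone receptor gene that marks cones together with Rxrg, did not pass. Its 1 probe set had values from 2.69 to 2.96 over the 6 arrays, below the median of each array, with a log2 fold change of -0.05 (limma adjusted p = 0.772) and a fold between 0.837 and 1.11. A probe set at this level gives little information on a transcript of low abundance, so that no change was detectable rather than shown to be absent.

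Prdm1 lay just outside the thresholds. It was at 3.80, 3.62 and 4.55 on the control arrays and at 4.94, 4.71 and 4.69 on the mutant arrays. The groups did not overlap, but control replicate 3 came within reach of the mutant arrays and the other 2 controls lay near the array median. The difference was 1.73-fold (95% confidence interval 1.19 to 2.52), a log2 fold change of 0.79 (SE 0.23, limma adjusted p = 0.104). Without control replicate 3, the log2 fold change was 1.07 (limma adjusted p = 0.0139) and Prdm1 was called. It was also called without the dimmest 40% of probe sets (adjusted p = 0.0773), with array weights (adjusted p = 0.0995) and with trend and robust moderation (adjusted p = 0.0564), while over all alternatives the adjusted p ran from 0.0139 to 0.291.

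The rod factor gene Nrl had values from 2.47 to 2.69 over the 6 arrays, with a log2 fold change of -0.01 (limma adjusted p = 0.952). Rcvrn had values from 2.28 to 2.56 and a log2 fold change of -0.07 (limma adjusted p = 0.67). Both lay below the median of all 6 arrays, and their groups overlapped. Gngt2 was at 3.46, 3.43 and 3.59 on the control arrays and at 3.61, 3.77 and 3.68 on the mutant arrays. Its groups did not overlap and its values lay near the median of the arrays. The log2 fold change of Gngt2 was 0.19 (SE 0.07, limma adjusted p = 0.196) with an interval of the fold from 1.01 to 1.29, short of the fold change of 1.5.

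**Figure D3:**
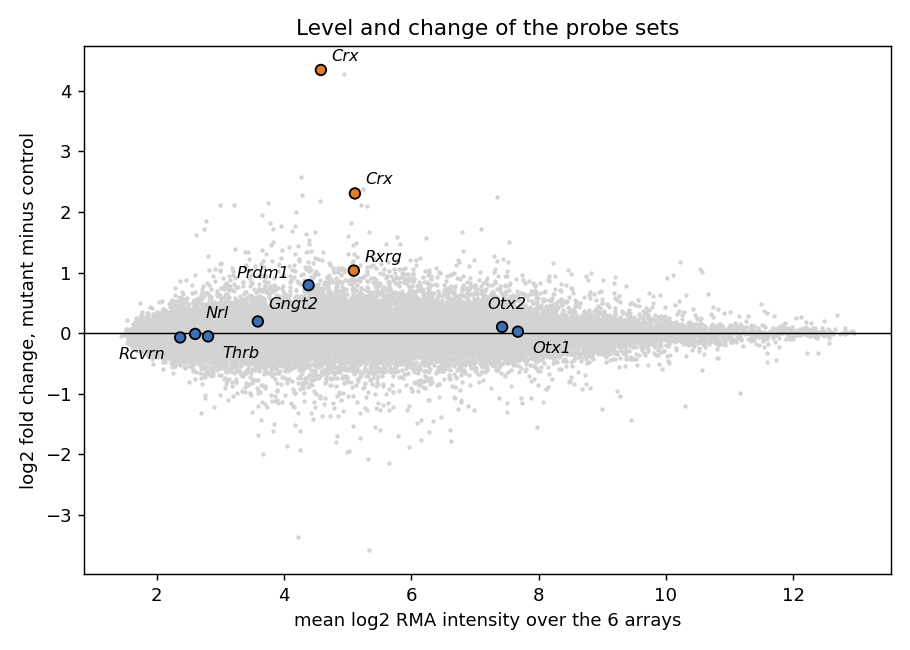
Log2 fold change, mutant minus control, against the mean log2 RMA intensity over the 6 arrays, with all 45037 probe sets in grey, called member probe sets in orange and the other member probe sets in blue. The Crx probe set at 4.34 lies at the top of the plot, and Otx1 and Otx2 lie near 0 at a brighter level.

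The genes that act around these factors were described by fixed lists, each gene by its brightest probe set. Among 13 measured genes known to act upstream of photoreceptor fate or in its choice, 5 were lower and none was higher (0 higher at an unadjusted p under 0.05 or without moderation), with a median log2 fold change of -0.43. Without moderation of the variance, 2 were lower, Neurod1 and Atoh7. Neurod1, a bHLH factor of photoreceptor and amacrine cell development, had a log2 fold change of -1.49 (SE 0.12, limma adjusted p = 0.0035). The nuclear receptor gene Rorb, an activator of Prdm1 and Nrl in photoreceptors, had a log2 fold change of -1.13 (SE 0.22, limma adjusted p = 0.033). Onecut2, a factor of cone and horizontal precursors, fell by 1.54, Atoh7, which gives competence for early neurons, by 1.21 and Foxn4 by 0.66 on the log2 scale. Without control replicate 2, 3 of them were called, Onecut2 and Foxn4 no longer. Onecut2 was also not called without control replicate 3 or mutant replicate 3. Notch1, which holds back photoreceptor fate, had a log2 fold change of 0.02 (limma adjusted p = 0.935).

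Among 16 measured further factors of photoreceptors, which include Neurod1 and Rorb again, 3 were lower (2 without moderation) and none was higher (1 was higher at an unadjusted p under 0.05, and 0 without moderation), with a median log2 fold change of -0.12. The third was Hes6, a bHLH cofactor of neuronal differentiation, with a log2 fold change of -0.87 (limma adjusted p = 0.00389). The gene with the higher value was Mef2c, named after its value was seen, with a log2 fold change of 0.58 (limma adjusted p = 0.161), and 1 gene of the list was called higher without control replicate 3.

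Most measured genes of working photoreceptors lay below the array median. Of all 18193 genes, 6479 lay below it on all 6 arrays. Of 14 measured cone phototransduction genes besides Gngt2, 12 lay below the array median on all 6 arrays, and none was called by limma or without moderation. The median log2 fold change was 0.07, and 2 were higher at an unadjusted p under 0.05 and 0 lower. The short-wave opsin gene Opn1sw had a log2 intensity of 2.90 ± 0.04 (SD, n = 3) without the deletion and of 2.98 ± 0.17 (SD, n = 3) with it. The cone transducin gene Gnat2 had a log2 fold change of 0.26 (limma adjusted p = 0.241), and the cone arrestin gene Arr3 one of -0.17 (limma adjusted p = 0.595). The pair at the unadjusted level, named after their values were seen, were Guca1b, a guanylate cyclase activator gene of photoreceptors (0.43, limma adjusted p = 0.0254), and Cngb3, a cone channel gene (0.28, limma adjusted p = 0.086), both short of the fold change of 1.5. Guca1b lay above the array median on all 6 arrays and Cngb3 below it. Another, dimmer probe set of Guca1b had a log2 fold change of 0.02 (limma adjusted p = 0.951).

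Of 11 measured rod phototransduction genes, 8 lay below the array median on all arrays, and none was called by limma or without moderation (1 was higher at an unadjusted p under 0.05, and 0 lower). The median log2 fold change was -0.08. The rod transducin gene Gnat1 had a log2 fold change of 0.26 (limma adjusted p = 0.0736), its log2 intensity being 2.45 ± 0.07 (SD, n = 3) without the deletion and 2.71 ± 0.05 (SD, n = 3) with it, and the arrestin gene Sag one of -0.10 (limma adjusted p = 0.632). Of 20 genes of the outer segment and the photoreceptor synapse, 14 lay below the array median throughout, 1 was called higher and none lower (1 was lower at an unadjusted p under 0.05, and 0 without moderation), with a median log2 fold change of -0.01. The called gene was Cplx3, which encodes a complexin of retinal synapses, with a log2 fold change of 0.62 (limma adjusted p = 0.0932). It was not called in 5 of the 6 comparisons that left out 1 array, only without control replicate 1.

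**Figure D4:**
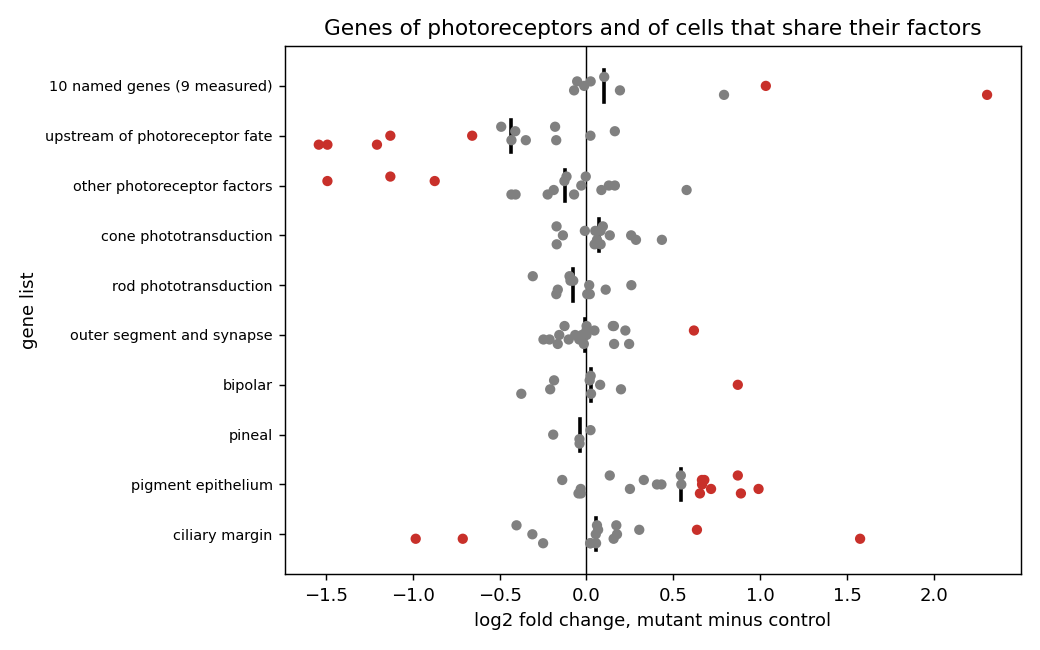
Log2 fold change, mutant minus control, of each measured gene of 10 lists by its brightest probe set, with 1 point per gene, called genes in red, other genes in grey and the median of each list drawn in black. Crx (2.31) and Rxrg (1.03) lie to the right, the called genes upstream of photoreceptor fate to the left, and the cone, rod and outer segment genes gather around 0.

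Crx, Otx1 and Otx2 are also active in other cells, so the markers of these were measured on the same arrays. Of 9 measured bipolar cell genes, 6 lay below the array median on all arrays, and 1 was called higher, Trpm1 (0.87, limma adjusted p = 0.00329), which the pigment epithelium list holds too and whose median over its probe sets gave a difference of 0.37 that did not pass. Vsx1, a factor of cone bipolar cells, had a log2 fold change of 0.02. Of 4 pineal genes none was called by limma or without moderation (0 higher and 1 lower at an unadjusted p under 0.05). Aanat, the melatonin synthesis enzyme gene, had a log2 fold change of -0.04 (limma adjusted p = 0.811).

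Of 19 pigment epithelium genes, 16 lay above the array median on all arrays, 8 were called higher and none lower (0 lower at an unadjusted p under 0.05 or without moderation), with a median log2 fold change of 0.54. The other 11 were not called, and 4 of the 19 had negative values. These counts hold for the brightest probe sets. Trpm3, named after its values were seen, was at -0.05 by its brightest probe set. A dimmer Trpm3 probe set was called lower, with a log2 fold change of -3.58 (limma adjusted p = 0.00679). For Slc45a2, also not called by its brightest, a dimmer probe set was called higher (0.67, limma adjusted p = 0.0255). Without moderation of the variance, 2 were higher, Trpm1 and Mlana. The melanocyte factor gene Mitf had a log2 fold change of 0.65 (limma adjusted p = 0.0186), and the pigment enzyme genes Tyr and Tyrp1 had ones of 0.67 and 0.68. By the median of its probe sets Mitf did not pass (0.52). Ttr, a thyroxine carrier gene, was at 0.99, the retinoid binding protein gene Rlbp1 at 0.89, Trpm1 at 0.87 and the melanosome gene Mlana at 0.72. Rpe65, Lrat and Slc6a20a lay below the array median throughout. The summed intensity of the list was 8476, 7042 and 8525 on control replicates 1, 2 and 3 and between 11330 and 11363 on the mutant arrays. Control replicate 2 was the lowest there as it was the lowest control array for 8 of the 10 member probe sets. Without it, 4 pigment epithelium genes were called and the brighter Crx probe set kept a log2 fold change of 2.14 (limma adjusted p = 0.00963). The part of pigment epithelium RNA in the values of Crx, Otx1 and Otx2 was not tested.

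At the ciliary margin, the rim of the optic cup, 2 of 17 measured genes were higher, Bmp4 (1.57) and Ccnd2 (0.64), and 2 were lower, Sfrp2 (-0.98) and Zic2 (-0.71), with a median of 0.06 on the log2 scale. Otx1 counts among them. For other cells of the eye and the sort, 5 of 16 ganglion cell genes and 4 of 12 progenitor genes were lower and none was higher. Sfrp2 is among these progenitor genes too. Of 14 horizontal and amacrine genes, 2 were lower and 1 higher. The 2 lower ones were Onecut2 and Foxn4, already counted among the genes upstream of photoreceptor fate. Higher and never lower were 7 of 17 lens and surface ectoderm, 6 of 13 mesenchyme, 5 of 12 endothelium and 1 of 10 blood and microglia genes. Without moderation of the variance, 1 ganglion cell and 4 progenitor genes were lower, 2 lens and 2 mesenchyme genes were higher, and none of the horizontal and amacrine, endothelium and blood genes was called. Leaving out 1 array moved these counts to between 2 and 8 for ganglion cell genes (2 without mutant replicate 2, 3 without control replicate 2 or mutant replicate 3, 8 without control replicate 1), 4 and 9 for lens genes (4 without mutant replicate 1 or 3), 4 and 6 for mesenchyme genes (4 without mutant replicate 1) and 0 and 6 for endothelium genes (0 without mutant replicate 1 or 2, 1 without mutant replicate 3, 2 without control replicate 1 and 3 without control replicate 2). Of the horizontal and amacrine genes, 0 were lower without control replicate 2 and 1 without control replicate 3 or mutant replicate 3, and 0 were higher when replicate 1 of either group or mutant replicate 2 was left out. The blood gene was called without control replicate 1 and in none of the other 5 comparisons that left out 1 array. The summed intensity of the lens list ran from 2782 to 3883 on the control and from 5094 to 5535 on the mutant arrays, that of mesenchyme from 650.3 to 695 and from 992 to 1326, and that of endothelium from 687 to 928 and from 1177 to 1274. The progenitor list ran from 8897 to 9595 and from 6120 to 6400. Their part in the values of the photoreceptor precursor genes was not tested.

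The genes with the profile nearest to that of Crx were Dazl, Nrp2, Sowaha, Nxph1 and Bmp4. Likeness was the root mean square difference, over the 6 arrays, between the log2 intensities of a gene and of the brighter Crx probe set, each minus its own control mean. It was 0.35 for Dazl, a germ cell RNA-binding protein gene, 0.46 for the semaphorin receptor gene Nrp2, 0.46 for Sowaha, 0.49 for the neurexophilin gene Nxph1 and 0.54 for the patterning factor gene Bmp4. Each of them had higher values on all 3 mutant arrays than on any control array. Control replicate 3 was the highest control array for Dazl, Nrp2 and Sowaha but not for Crx, Nxph1 and Bmp4. Of the other members, Rxrg was the nearest to Crx (0.92, rank 55 of all genes), followed by Prdm1 (1.12, rank 203). The measure is not scaled, so it largely repeats the size of the rise, by which Rxrg ranked 66 and Prdm1 183.

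**Figure D5:**
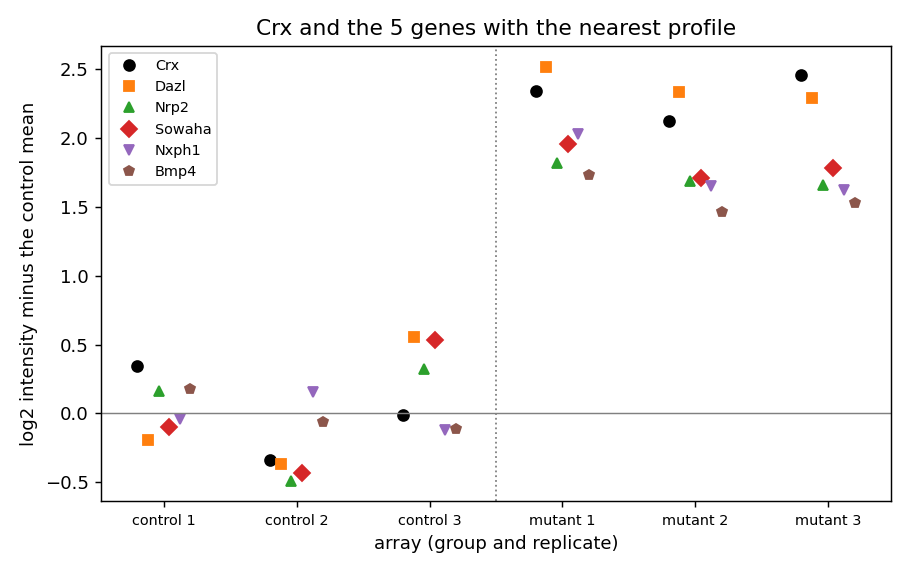
Log2 intensity minus the control mean on each of the 6 arrays for Crx (black circles, brighter probe set) and the 5 genes with the nearest profile. For all 6 genes the mutant points lie above the control points, which follows from the choice by likeness to Crx. The control arrays spread in different orders.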

How the data were processed

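RNA of sorted RPCs from 3 control and 3 Pax6 mutant pools was hybridised to Affymetrix mouse arrays, 1 pool per array. The deposited values are intensities per probe set on a linear scale, made by the authors with RMA, which corrects background, normalises between arrays and summarises probes. The methods ran it through RACE and Bioconductor, and Affymetrix Expression Console stands beside RMA in the submitters' processing notes, without versions. Log2 was taken, 64 control probe sets were left out of 45101, and groups were compared with limma 3.58.1 in R 4.3.3, with the thresholds of the methods. The SAM check named there was not repeated. Of the tested probe sets, 34945 had 1 gene symbol, 932 several and 9160 none in the annotation used. Arrays have no depth, and their number limits the precision. Limma p-values set the difference between the groups against the spread between these pools, with the variance moderated over all probe sets.

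Members and lists were chosen with earlier results of these data known. Named were all members, Pax6, up to 6 called genes per list by size of change, up to 3 defining genes per cell type and the 5 profiles nearest to Crx. In the lists of ganglion, progenitor, horizontal and amacrine, lens, mesenchyme, endothelium and blood genes no gene is named. The exceptions are genes that an earlier list holds too. The fit was tested on simulated data. Alternatives were array scaling, repeated quantile normalisation, a filter on low values, an offset, array weights, other variance estimates, the replicate number as a block, other thresholds, other summaries of a gene's probe sets and leaving out each array.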

Additional observations from a re-analysis of the deposited data

How the results depend on the processing

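Crx, by both probe sets, and Rxrg were called under each alternative that was run, with log2 fold changes without 1 array of 2.14 to 2.48, 4.18 to 4.46 and 0.98 to 1.09. Prdm1 became called without the dimmest 40% of probe sets (0.79), with trend and robust moderation (0.79), with array weights (0.76), in the fit over 1 value per gene, the median of its probe sets (0.79), and without control replicate 3, within a range without 1 array of 0.61 to 1.07. Fewer features were tested in the settings with fewer probe sets or 1 value per gene. Why Prdm1 became called was not tested for any of these settings. Values near 0 changed sign without 1 array and were called in no case: Otx1 ran from -0.0097 to 0.046, Otx2 from -0.0049 to 0.17, Thrb from -0.12 to 0.012, Nrl from -0.084 to 0.047 and Rcvrn from -0.13 to 0.0045. Nrl was also at 0.022 with quantile normalisation repeated. Of all probe sets, 343 were higher and 174 lower with the offset of 16, 282 and 178 without moderation, and 2268 and 2049 without a minimum fold change, against 752 and 443.

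Replicate numbers 1 to 3 occur in both groups, and the labels name no shared litter or day. The deviations of same-numbered arrays had correlations between -0.0106 and -0.00064, and those of differently numbered arrays between -0.0018 and 0.0105. Values this near 0 cannot settle whether same-numbered pools were handled together. With the replicate block, 709 probe sets were higher and 427 lower, and Crx (2.31, limma adjusted p = 0.0141 by the brighter probe set) and Rxrg (1.03, adjusted p = 0.0229) stayed called. By these deviations, no array had its highest correlation in the other group with the array of its own number, which cannot settle it either. Low signal limits Thrb, Nrl, Rcvrn and the phototransduction genes.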
